A study of Mus musculus with 8 samples.

Results

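Lysosomal enzymes and membrane genes were 35 of the 24421 genes in the count table, chosen by symbol from a list of named genes that was drawn up with earlier results of these data known. They comprised 6 membrane proteins, 7 proteases, 14 hydrolases of glycans, 5 proteins of lipid handling and 3 regulators or adaptors. All 35 were in the table and all 35 passed the filter on low counts, with mean counts per library between 5.38 and 1503. The libraries came from bone marrow neutrophils of 8-week-old female C57BL/6 mice, isolated magnetically. WT neutrophils and neutrophils of Padi4 KO mice, in which exon 1 of Padi4 is deleted in the germ line, were either left unstimulated (Nostim) or given R848 at 1 µg/ml, a ligand of the endosomal receptor TLR7, for 6 h. There were 4 groups of 2 libraries. The labels do not say whether the duplicates came from separate mice, so the p-values measure the spread between these libraries, which may be technical. The sample titles give 0 h for the unstimulated cells and the protocol gives 6 h, and if the titles hold, each R848 response also contains 6 h in culture.

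Lysosomes are acidic compartments in which hydrolases break down proteins, glycans and lipids, and their membrane proteins shield the cytoplasm and move lipids and ions. The transcription factors TFEB, TFE3 and MITF drive many of these genes through an E box with the core CACGTG, and are held in the cytoplasm while the kinase mTORC1 is active. In neutrophils, several lysosomal hydrolases are also stored in the azurophil granules, which are filled in the bone marrow precursors, and TLR7 itself signals from endolysosomes after cleavage by lysosomal proteases.

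Promoter windows were examined because the E box is the sequence through which TFEB acts on this gene family. RefSeq windows on GRCm38.p6, from 250 bases before to 50 bases after a start site, were matched by symbol for 31 of the 35 genes, and Asah1, Ctsb, Ctsh and Npc1 had none. CACGTG, a palindrome searched on both strands, was present in the windows of 10 of the 31 genes, or 32.3%, against 11.7% of all tested genes with a window. The longer form TCACGTGA, which contains CACGTG, was present in 4 of the 31, or 12.9%, against 2.16% of tested genes. The CLEAR element, a palindrome made of TCACGTGA with a G before it and a C after it, was found in 0 of the 31 and in 0.843% of tested genes. The windows of Lamp1, Ctsd, Ctsa and Sgsh are shown because Lamp1 and Ctsd rose with R848, Ctsa and Sgsh fell, and all carry the motif. Each is written 5′ to 3′ on the strand of its gene, with every CACGTG in capitals. Lamp1 lies on the plus strand (chr8:13158911-13159210), Ctsd on the minus strand (chr7:142387778-142388077), Ctsa on the plus strand (chr2:164833523-164833822) and Sgsh on the minus strand (chr11:119355461-119355760).
Lamp1: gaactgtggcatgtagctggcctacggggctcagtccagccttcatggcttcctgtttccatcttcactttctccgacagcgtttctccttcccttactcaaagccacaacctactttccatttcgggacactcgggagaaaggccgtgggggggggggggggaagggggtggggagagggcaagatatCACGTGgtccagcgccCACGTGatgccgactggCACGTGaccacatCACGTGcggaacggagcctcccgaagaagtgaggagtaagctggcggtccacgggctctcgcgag
Ctsd: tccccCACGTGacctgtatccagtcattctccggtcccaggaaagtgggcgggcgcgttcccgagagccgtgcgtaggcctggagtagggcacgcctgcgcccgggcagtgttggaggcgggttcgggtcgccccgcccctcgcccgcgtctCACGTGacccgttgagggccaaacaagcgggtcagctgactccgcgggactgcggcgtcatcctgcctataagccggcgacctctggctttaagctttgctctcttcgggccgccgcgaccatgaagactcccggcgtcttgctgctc
Ctsa: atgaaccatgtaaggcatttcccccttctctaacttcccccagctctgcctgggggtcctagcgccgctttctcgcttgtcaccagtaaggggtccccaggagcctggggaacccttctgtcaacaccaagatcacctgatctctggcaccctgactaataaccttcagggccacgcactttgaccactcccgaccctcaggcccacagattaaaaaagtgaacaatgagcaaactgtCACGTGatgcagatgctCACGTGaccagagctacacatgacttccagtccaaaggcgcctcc
Sgsh: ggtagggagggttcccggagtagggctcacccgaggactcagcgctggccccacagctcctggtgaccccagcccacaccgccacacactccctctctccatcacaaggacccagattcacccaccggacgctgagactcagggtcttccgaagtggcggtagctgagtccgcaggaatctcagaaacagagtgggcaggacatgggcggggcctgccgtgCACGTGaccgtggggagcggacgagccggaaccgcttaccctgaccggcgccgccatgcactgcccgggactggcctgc
The Lamp1 window held 4 copies of the motif, those of Ctsd and Ctsa held 2 each and that of Sgsh held 1. Ctsa had a further window without the motif. A match describes letters in a window and does not show that a factor binds there.

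Libraries held between 562446 and 1177972 counts on genes, with a mean of 620594.5 in WT and 1032734.5 in KO, and a floor of 3 counts corresponded to 2.55 to 5.33 CPM (counts per 1000000 counts of the library). Padi4, the targeted gene, had 166 to 590 counts in the WT libraries and 21 to 54 in the KO libraries, in which exons other than the deleted one can still be counted. Of 11 neutrophil markers, 10 were lower in unstimulated KO than in WT and 9 were lower after R848 (against 14.4% and 7.81% of all genes tested at a false discovery rate below 0.1), with median log2 differences of -0.56 and -0.62. The summed erythroid markers were at 128 to 161 CPM in unstimulated WT, 31.4 to 60.6 CPM in WT after R848 and 1429 to 1554 CPM in the 4 KO libraries, with the 4 hemoglobin genes of that list at 0 in every library. The monocyte and macrophage list summed to 541 and 1133 CPM in unstimulated WT and KO and to 3041 and 3126 CPM after R848. Of its 15 genes, Adgre1, Csf1r, Cx3cr1 and Vcam1 rose in both genotypes at a false discovery rate below 0.1, Ccr2 and F13a1 fell, and the macrophage genes C1qa, C1qb, C1qc, Mrc1, Cd5l, Siglec1 and Mertk had at most 3 counts in any library. The early neutrophil list summed to 9673 and 5804 CPM in unstimulated WT and KO and to 7066 and 3746 CPM after R848, and the stromal and endothelial list to 235 and 673 CPM and then to 38.4 and 49.8 CPM. The part of these markers in the results below was not tested, and in bulk RNA fewer cells of a type and less RNA per cell cannot be told apart.

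The first question was how the lysosomal genes responded to R848. In WT neutrophils, 17 of the 35 changed by more than 2-fold at a false discovery rate (FDR) below 0.1, where the FDR is the Benjamini-Hochberg adjusted p of the quasi-likelihood test in edgeR over 12254 genes. The same call was made for 18% of all genes tested. Ctsb, Ctsd, Ctsl, Ctsz, Gla, Lamp1, Lipa and Sqstm1 rose (background 7.17% of genes higher), and Arsb, Ctsa, Glb1, Grn, Ids, Man2b1, Manba, Ppt1 and Sgsh fell (background 10.8% lower). In KO neutrophils, 15 of the 35 changed under this rule against 16.9% of all genes, 7 upward (background 8.07%) and 8 downward (background 8.84%). All 15 were among the 17 of WT and moved in the same direction, and Gla and Ctsa were called in WT only under this rule. For all genes, 623 rose under this rule in both genotypes, which was 70.9% of the WT calls and 63% of the KO calls, and 548 fell in both, which was 41.3% and 50.6%.

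At an FDR below 0.1 without the fold limit, 22 genes changed in WT (9 higher, 13 lower) and 22 in KO (10 higher, 12 lower), against 29.5% and 35.1% of all genes. The gene set was thus split in direction: its median log2 change was -0.09 in WT and -0.07 in KO, beside -0.17 and -0.03 over all genes tested. Scaling moved these changes together. With library size alone in place of the trimmed mean of M values (TMM), the median of the 6912 genes with a mean of at least 10 counts shifted from -0.07 to -0.38 in WT and from 0.08 to -0.30 in KO. Every call at an FDR below 0.1 in both responses nevertheless had the same sign under each of the scalings, filters and left-out libraries tried, and 15 of the 22 WT calls and 14 of the 22 KO calls also remained below an FDR of 0.1 under all of them in which the gene was tested.

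**Figure D1:**
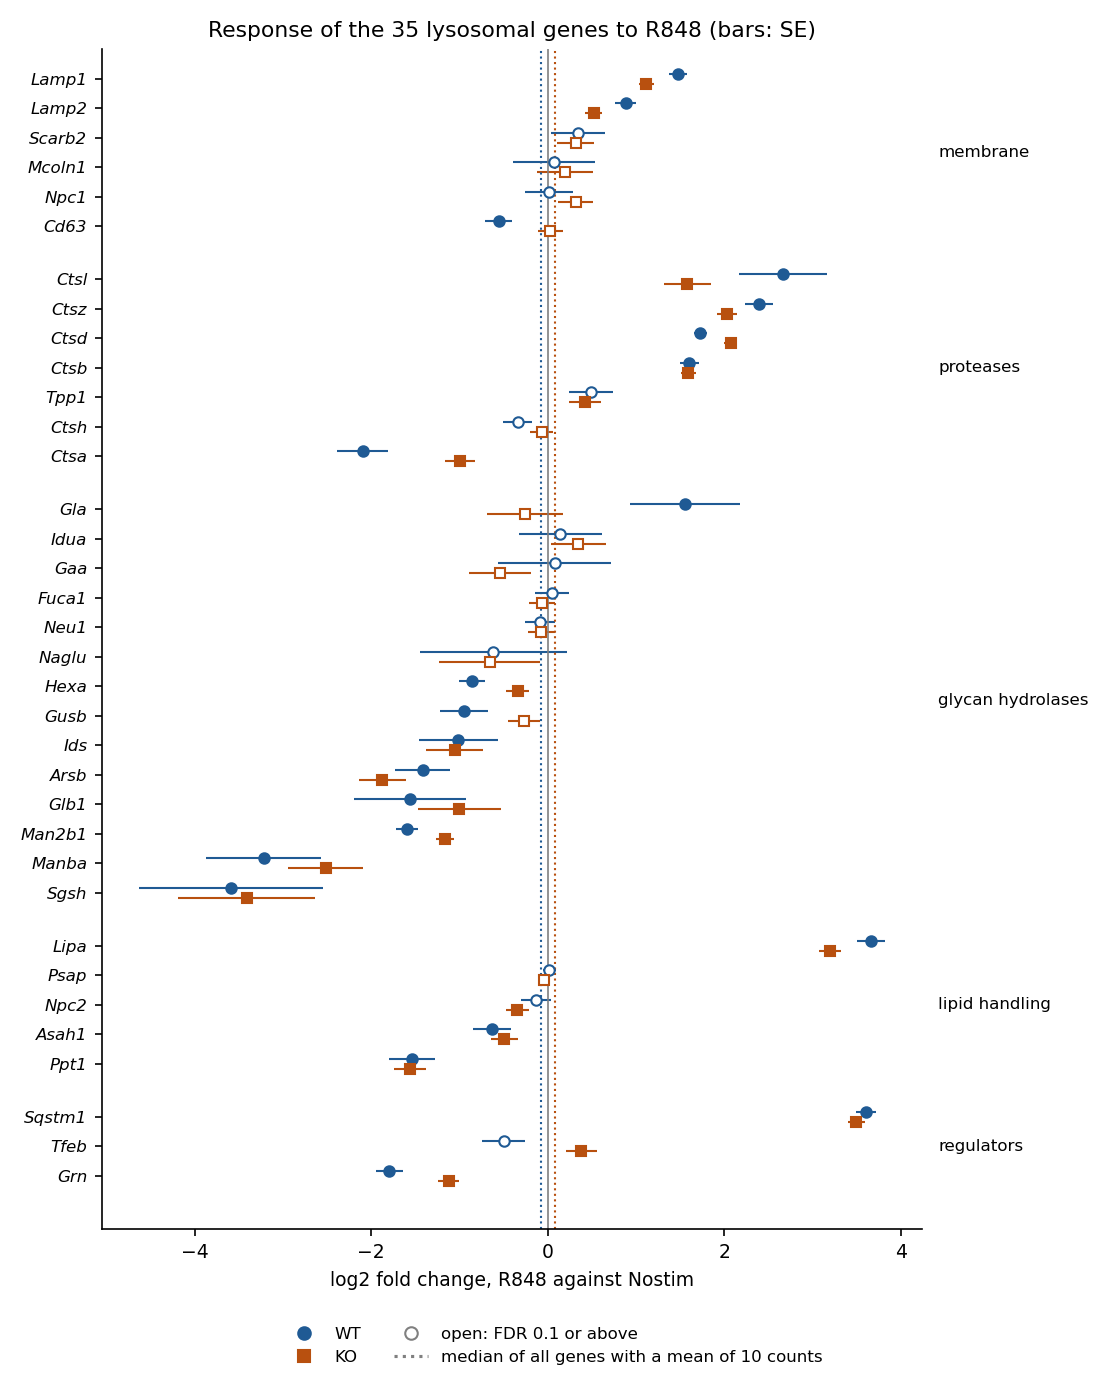
Log2 fold change with R848 (x axis) of the 35 lysosomal genes (y axis, grouped by role and ordered by the WT value) in WT (circles) and KO (squares), with the SE as a bar, filled where the FDR was below 0.1. Proteases and the glycan hydrolases lay mostly on opposite sides of 0, and Lipa, Sqstm1, Manba and Sgsh lay farthest from it.

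The membrane proteins rose or did not pass the test, apart from Cd63 in WT. Lamp1, a major glycoprotein lining the lysosome, stood at 337 and 307 CPM in unstimulated WT and at 929 and 869 CPM after R848, and at 373 and 361 CPM and then 811 and 777 CPM in KO. Its log2 change was 1.48 ± 0.10 (SE, n = 2 per group) in WT and 1.11 ± 0.09 in KO (edgeR FDR = 2.7e-46 and 4.1e-37). Both treated libraries of each genotype were thus well above both unstimulated ones. Lamp2, its partner that also serves chaperone-mediated autophagy, went from 297 and 242 CPM to 507 and 490 CPM in WT and from 271 and 277 CPM to 379 and 410 CPM in KO. The rise of Lamp2 passed the test in both genotypes but stayed below 2-fold, with log2 changes of 0.88 ± 0.12 and 0.52 ± 0.10. Cd63, a tetraspanin of late endosomes and azurophil granules, went the other way in WT, from 233 and 200 CPM to 165 and 133 CPM (log2 change -0.56 ± 0.15, edgeR FDR = 0.0021). In KO, Cd63 was at 122 and 108 CPM without and 127 and 105 CPM with R848, and the libraries overlapped. Scarb2, the receptor that carries glucocerebrosidase, Npc1, which exports cholesterol, and the cation channel Mcoln1 passed the test in neither genotype, with log2 values between 0.01 and 0.34.

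Among the proteases, 4 cathepsins rose by more than 2-fold in both genotypes. Ctsd, an aspartic protease, went from 884 and 901 CPM to 2943 and 2978 CPM in WT and from 672 and 675 CPM to 2915 and 2754 CPM in KO. Its log2 change was 1.73 ± 0.08 in WT and 2.07 ± 0.07 in KO (edgeR FDR = 2.7e-109 and 9.1e-173). The 4 treated libraries lay within 2754 to 2978 CPM, whereas the unstimulated ones were lower in KO than in WT. Exons of the predicted gene Gm49369 on the same strand cover 34.4% of the Ctsd exon length in GENCODE M21, and how the counting shared such reads is not stated. Ctsb, a cysteine protease, rose from 267 and 257 CPM to 803 and 793 CPM in WT and from 318 and 308 CPM to 972 and 912 CPM in KO, with log2 changes of 1.60 ± 0.11 and 1.59 ± 0.09. Ctsz, a carboxypeptidase, rose from 78.8 and 62.2 CPM to 330 and 411 CPM in WT and from 106 and 87.8 CPM to 402 and 379 CPM in KO. The log2 changes of Ctsz were 2.39 ± 0.16 and 2.03 ± 0.12. Ctsl, an endopeptidase, had few reads, at 9.28 and 1.73 CPM (6 and 1 counts) in unstimulated WT and 40.8 and 33.6 CPM after R848. In KO it was at 15.8 and 16.7 CPM and then 41.8 and 57 CPM, and its log2 changes of 2.66 ± 0.50 and 1.58 ± 0.26 had the widest errors of the rising proteases. Exons on the opposite strand overlap 26.8% of the Ctsl exon length.

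The protease that fell was Ctsa, a serine carboxypeptidase that also protects the galactosidase Glb1 and the sialidase Neu1 in a complex. Ctsa went from 83.5 and 114 CPM to 26.5 and 19.5 CPM in WT and from 114 and 98 CPM to 46.2 and 58.8 CPM in KO. The log2 change was -2.10 ± 0.29 in WT and -0.99 ± 0.17 in KO (edgeR FDR = 4.3e-12 and 4.4e-08). The partner Glb1 had 13 and 8 counts in unstimulated WT and 3 and 3 after R848, and 9 and 20 counts and then 11 and 3 in KO. It fell by 1.57 on the log2 scale in WT and by 1.00 in KO, where the counts overlapped and the scaled values, 10.2 and 14.5 CPM against 9.77 and 2.76 CPM, did not. At an FDR below 0.1 the fall of Glb1 was called in 11 of 16 alternatives in WT and 9 of 16 in KO. Neu1 was at 145 and 145 CPM before and 128 and 143 CPM after R848 in WT, and its log2 values of -0.09 and -0.08 did not pass the test. The tripeptidyl peptidase Tpp1 rose in KO (log2 change 0.42 ± 0.18) and had a log2 value of 0.49 ± 0.25 in WT that did not pass, and the KO call was made in 8 of 16 alternatives. The aminopeptidase Ctsh passed in neither genotype.

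**Figure D2:**
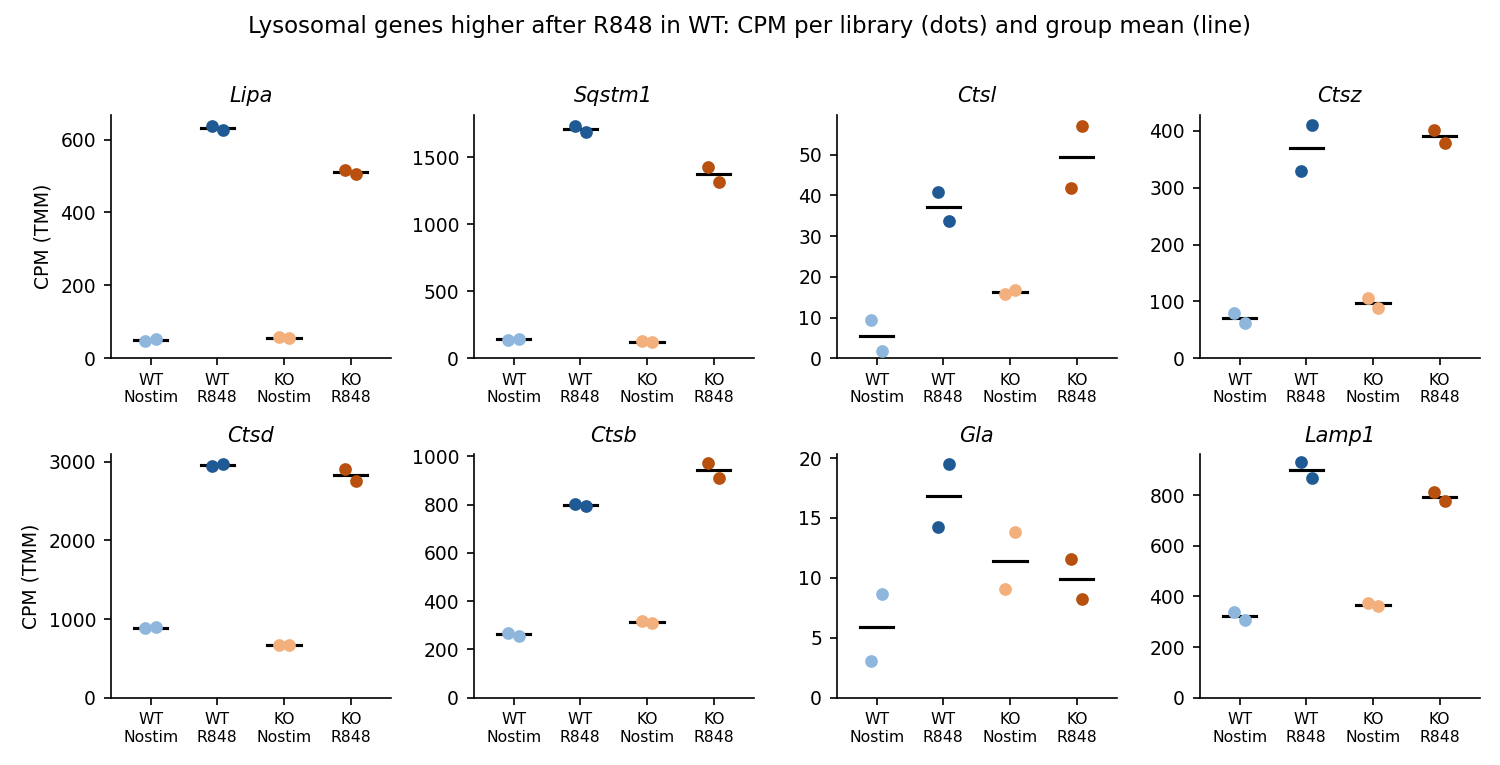
CPM with TMM factors (y axis, linear and from 0) of the 8 lysosomal genes that rose by more than 2-fold with R848 in WT, for each library (dots) in the 4 groups (x axis), with the mean of each group as a line. For Lipa, Sqstm1, Ctsl, Ctsz, Ctsd, Ctsb and Lamp1 every R848 library lay above every unstimulated one of its genotype, and for Gla this held in WT.

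The glycan hydrolases fell or did not pass the test, with the exception of Gla in WT. Of the 14, 8 fell and 1 rose in WT and 7 fell in KO at an FDR below 0.1, against 16% and 15.9% of all genes lower. The early neutrophil genes, which mark the precursors that fill azurophil granules, moved the same way: 5 of 7 fell in WT and 6 of 7 in KO at this FDR, with Mpo, the myeloperoxidase of these granules, lower by 2.11 and 2.71 on the log2 scale. Of the 11 neutrophil markers, 6 fell and 3 rose in WT and 4 fell and 4 rose in KO, beside 13.5% and 19.2% of all genes higher. The part of either list in the fall of the hydrolases was not tested. Man2b1, a lysosomal alpha-mannosidase, went from 564 and 580 CPM to 171 and 205 CPM in WT and from 387 and 417 CPM to 182 and 178 CPM in KO. Its log2 change was -1.59 ± 0.12 in WT and -1.16 ± 0.10 in KO (edgeR FDR = 5.2e-37 and 1.2e-27). The treated libraries of both genotypes lay within 171 to 205 CPM, whereas the unstimulated ones were lower in KO. The beta-mannosidase Manba fell to near the floor, from 15 and 19 counts to 2 and 1 counts in WT and from 25 and 35 counts to 4 and 6 counts in KO. Pooled over libraries and divided by their totals, the ratio of Manba without to with R848 in WT had a 95% exact interval of 3.79 to 61.3 (counting error only), and its fitted log2 change was -3.22 ± 0.65 in WT and -2.52 ± 0.42 in KO. Sgsh, which removes sulfate from heparan sulfate, had 8 and 8 counts in unstimulated WT and 1 and 0 after R848, and 8 and 17 against 0 and 2 counts in KO. Its pooled ratio without to with R848 was 17.0 (interval 2.64 to 713) in WT and 15.9 (interval 3.96 to 138) in KO, so its size is loosely bounded in either genotype.

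Further hydrolases of glycosaminoglycans and gangliosides also fell. Arsb, which acts on dermatan sulfate, went from 69.6 and 62.2 CPM to 20.4 and 28.3 CPM in WT and from 50.9 and 55.1 CPM to 13.3 and 15.6 CPM in KO, with log2 changes of -1.42 ± 0.31 and -1.88 ± 0.26. Exons on the opposite strand overlap 32.3% of the Arsb and 21.6% of the Sgsh exon length, and the strand setting of the counting is not stated. Ids, an iduronate sulfatase, went from 30.9 and 22.4 CPM to 16.3 and 10.6 CPM in WT and from 31.7 and 26.1 CPM to 10.7 and 16.5 CPM in KO. The changes of Ids, -1.01 ± 0.45 and -1.06 ± 0.32 on the log2 scale, lay near the fold limit, and the WT call was made in 9 of 16 alternatives. Hexa, the alpha subunit of hexosaminidase, went from 286 and 231 CPM to 132 and 152 CPM in WT and from 136 and 172 CPM to 137 and 110 CPM in KO. It fell in both genotypes by less than 2-fold (log2 changes -0.86 ± 0.15 and -0.34 ± 0.13), with libraries that overlapped in KO. Gusb, which cleaves glucuronic acid, fell in WT (-0.95 ± 0.27) and had a value of -0.27 ± 0.18 in KO that did not pass.

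Gla, the alpha-galactosidase, had 2 and 5 counts in unstimulated WT and 7 and 11 after R848, beside 8 and 19 and then 13 and 9 counts in KO. Its log2 values were 1.55 ± 0.62 in WT (edgeR FDR = 0.051) and -0.26 ± 0.43 in KO, and their difference of -1.81 ± 0.76 did not pass the test (edgeR FDR = 0.21). These few counts leave the difference unresolved. Gaa, Idua, Naglu, Fuca1 and Neu1, which release glucose, iduronic acid, N-acetylglucosamine, fucose and sialic acid, passed in neither genotype, with log2 values between -0.66 and 0.35. Naglu had a mean of 5.38 counts per library, so only a large change could have been seen.

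**Figure D3:**
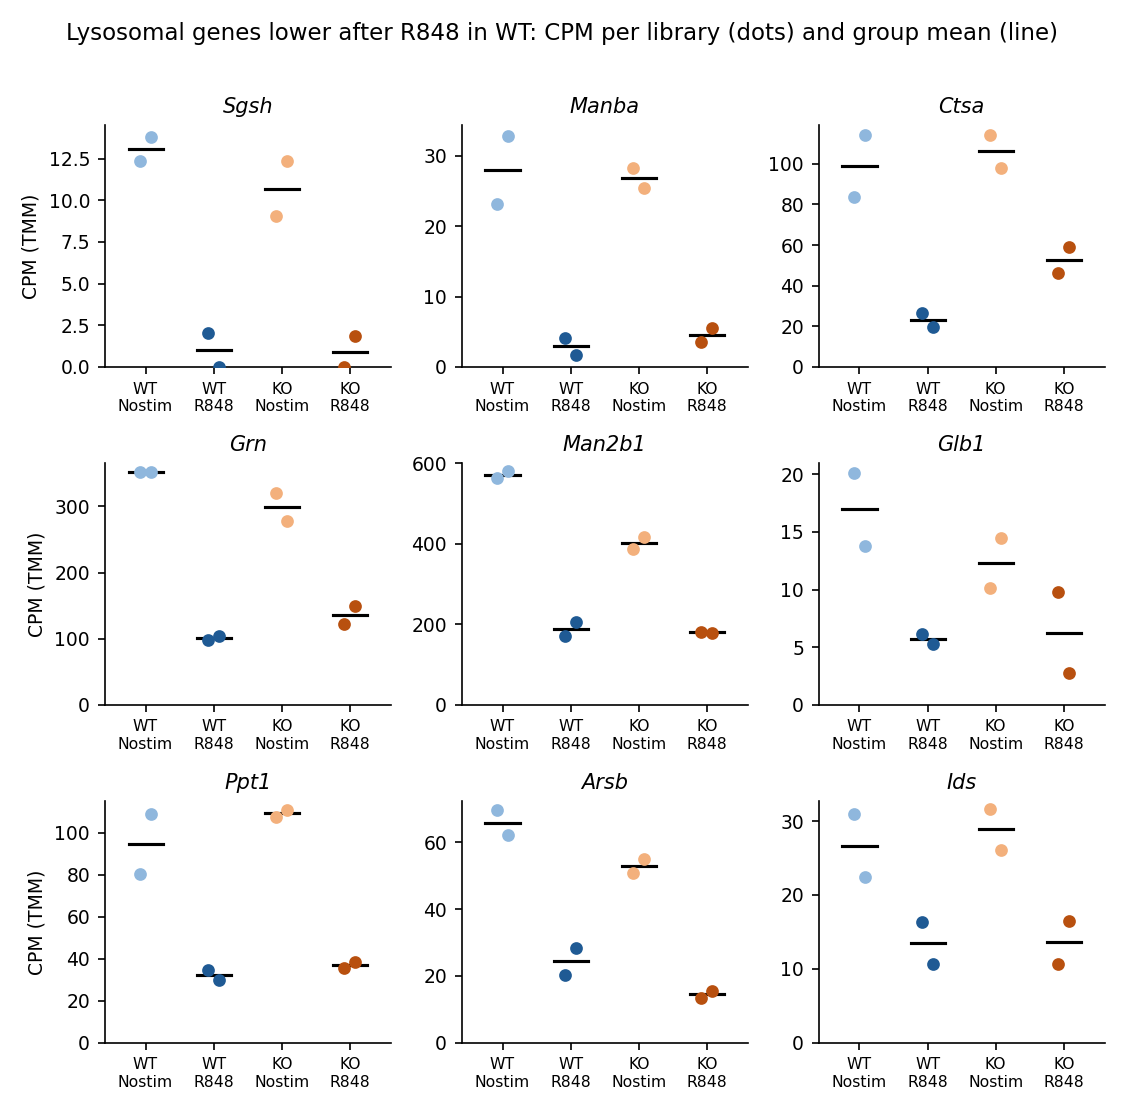
CPM with TMM factors (y axis, linear and from 0) of the 9 lysosomal genes that fell by more than 2-fold with R848 in WT, for each library (dots) in the 4 groups (x axis), with the mean of each group as a line. Every R848 library lay below every unstimulated library of its genotype, with Sgsh at 0 in 1 treated library of each genotype.

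Among the genes of lipid handling, Lipa rose and Ppt1 and Asah1 fell in both genotypes. The rise of Lipa was the largest of the 35 genes in WT, while that of Sqstm1 was the largest in KO. Lipa, the acid lipase that frees cholesterol and fatty acids from lipoproteins, went from 47.9 and 51.8 CPM to 638 and 627 CPM in WT and from 57.7 and 54.4 CPM to 517 and 505 CPM in KO. Its log2 change was 3.66 ± 0.16 in WT and 3.19 ± 0.13 in KO (edgeR FDR = 1.1e-119 and 1.8e-140). Lipa carried no CACGTG in its RefSeq window. Ppt1, which removes palmitate from proteins, went from 80.4 and 109 CPM to 34.6 and 30.1 CPM in WT and from 107 and 111 CPM to 35.5 and 38.6 CPM in KO, with log2 changes of -1.54 ± 0.27 and -1.56 ± 0.18. The acid ceramidase Asah1 fell by 0.63 and 0.49 on the log2 scale in WT and KO, and Npc2, which hands cholesterol to Npc1, fell in KO (-0.35 ± 0.13) and had a value of -0.13 ± 0.17 in WT. Psap, the precursor of the saposins that help hydrolases reach sphingolipids, did not pass the test in either genotype. It was at 1611 and 1390 CPM in unstimulated WT and 1573 and 1475 CPM after R848, and at 1622 and 1565 CPM and 1490 and 1608 CPM in KO. Its libraries overlapped in both genotypes, and its log2 values of 0.02 ± 0.08 and -0.04 ± 0.07 were the most precise of those that did not pass.

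Among the regulators and adaptors, Sqstm1 rose and Grn fell in both genotypes. Sqstm1 encodes p62, the receptor that brings ubiquitinated cargo to autophagosomes and is itself degraded there, and went from 136 and 145 CPM to 1736 and 1687 CPM in WT. In KO it went from 125 and 119 CPM to 1430 and 1317 CPM, and the log2 changes were 3.61 ± 0.11 and 3.50 ± 0.10 (edgeR FDR = 1.4e-238 and 8.0e-280). Sqstm1 had no CACGTG in its window, and exons on the opposite strand overlap 17.3% of its exon length. Grn, the precursor of lysosomal granulins, went from 352 and 352 CPM to 97.8 and 104 CPM in WT and from 320 and 277 CPM to 122 and 150 CPM in KO. The log2 change of Grn was -1.80 ± 0.15 in WT and -1.12 ± 0.11 in KO, and it too had no CACGTG in its window. Tfeb was at 60.3 and 96.7 CPM in unstimulated WT and 42.8 and 65.5 CPM after R848, and at 57.7 and 61.7 CPM and 79.1 and 77.2 CPM in KO. The WT libraries of Tfeb overlapped and its log2 value of -0.50 ± 0.24 did not pass (edgeR FDR = 0.13), while the KO libraries did not overlap and gave 0.38 ± 0.17 (edgeR FDR = 0.087), a call made in 5 of 16 alternatives.

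The E box was not tied to 1 direction. In WT, CACGTG was present in 4 of the 8 rising genes with a window (Ctsd, Ctsl, Gla and Lamp1), in 3 of the 12 falling ones (Ctsa, Glb1 and Sgsh) and in 3 of the 11 that did not pass (Gaa, Mcoln1 and Naglu). In KO these counts were 3 of 9, 3 of 11 and 4 of 11.

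The roles also differed in the sum of their transcripts, given here as CPM of the library total. The 7 proteases went from a mean of 1578 to 3624 CPM in WT and from 1741 to 4286 CPM in KO. The 14 glycan hydrolases went down from 1378 to 592 CPM in WT and from 1255 to 614 CPM in KO. For the 6 membrane genes the means were 929 and 1369 CPM in WT and 1068 and 1370 CPM in KO, and for the 5 lipid genes 1927 and 1965 CPM and 2512 and 2198 CPM. The whole set made up 0.639% of the counts on genes in unstimulated WT and 0.909% after R848, and 0.717% and 0.999% in KO. Ctsd, Sqstm1 and Psap made up much of this: the other 32 genes together were at 3812 and 3982 CPM without and with R848 in WT and at 4204 and 4476 CPM in KO.

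Per kilobase of exon (RPKM, from TMM-scaled CPM and GENCODE M21 exon lengths), the order of the levels changed with R848. In unstimulated WT the highest were Psap at 547, Ctsd at 380, Hexa at 130, Lamp1 at 120 and Grn at 101 RPKM. After R848 in WT they were Ctsd at 1259, Psap at 555, Sqstm1 at 510, Lamp1 at 336 and Ctsz at 257 RPKM, so Hexa and Grn had left the top 5. The same 5 genes led in KO after R848, at 1206, 565, 409, 297 and 271 RPKM. At the other end, Manba and Sgsh were at 0.419 and 0.231 RPKM in WT after R848.

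The next comparison was between genotypes within each treatment. Without stimulation, 9 of the 35 differed between KO and WT at an FDR below 0.1, against 23.9% of all genes tested. Ctsl, Ctsz and Gaa were higher in KO (background 9.55%) and Cd63, Ctsd, Grn, Hexa, Man2b1 and Neu1 were lower (background 14.4%). Cd63 had a log2 difference of -0.93 ± 0.14 and Hexa one of -0.73 ± 0.13 (edgeR FDR = 1.2e-09 and 2.6e-07). Cd63 and Hexa were called in all 16 alternatives. Grn, with a log2 difference of -0.25, was called in 5 of the 16, and its value was 0.034 with library size alone. The neutrophil markers were lower in KO as well, as given above, as were 6 of the 7 early neutrophil genes, and the median over genes with a mean of at least 10 counts was -0.16. Man2b1, Neu1 and Ctsd had log2 differences of -0.50, -0.59 and -0.41. Ctsl was higher by 1.49 ± 0.53 from few counts, and Gaa, with 5 and 6 counts in WT and 11 and 34 in KO, by 1.13 ± 0.46. The split depended on scaling: with library size alone 11 genes were called, 9 higher and 2 lower, and with relative log expression (RLE) factors 10 were called, 5 in each direction. All genes tested shifted along, with 1901 higher and 561 lower by library size alone and 1309 higher and 1502 lower with RLE factors.

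After R848, 7 of the 35 differed between KO and WT, against 17.3% of all genes. Ctsa, Ctsb and Grn were higher in KO (background 9.46%) and Lamp2, Lipa, Neu1 and Sqstm1 were lower (background 7.81%), beside all 7 early neutrophil genes, which were lower. Ctsa differed most, with 46.2 and 58.8 CPM in KO against 26.5 and 19.5 CPM in WT and a log2 difference of 1.20 ± 0.30 (edgeR FDR = 0.0011). Neu1 had a log2 difference of -0.58 ± 0.17, at 88.0 and 94.7 CPM against 128 and 143 CPM, which was close to its value without stimulation. Lamp2, Lipa and Sqstm1 had log2 differences of -0.34, -0.31 and -0.32, and Grn and Ctsb were higher by 0.42 and 0.24. Grn was called in 10 of 16 alternatives, Ctsb in 11 and Lamp2 in 14. Ctsa, Neu1, Lipa and Sqstm1 were each called in 15 of 16 alternatives, Neu1, Lipa and Sqstm1 being lost with library size alone and Ctsa without WT R848 replicate 2. With library size alone 7 genes were called, all higher in KO, and with RLE factors 8, of which 1 was higher, beside 1870 higher and 417 lower of all genes with library size alone and 990 higher and 1359 lower with RLE factors.

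**Figure D4:**
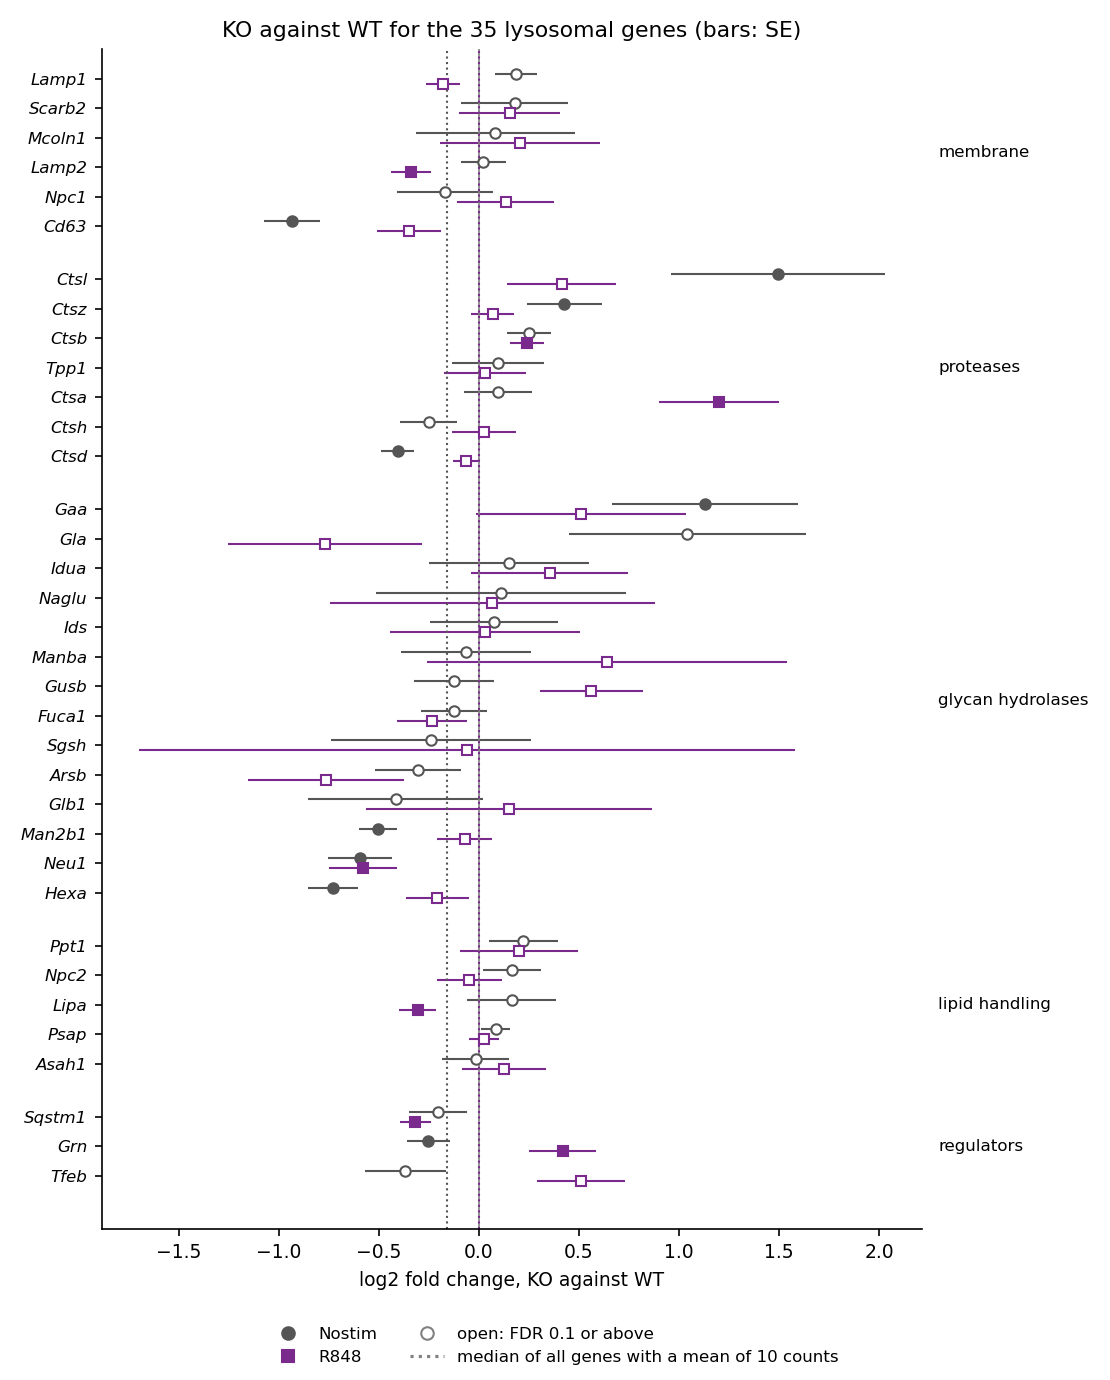
Log2 fold change of KO against WT (x axis) for the 35 lysosomal genes (y axis, by role) without stimulation (circles) and after R848 (squares), with the SE as a bar and filled where the FDR was below 0.1. Dotted lines mark the median of all genes with a mean of at least 10 counts, -0.16 without stimulation and near 0 after R848.

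The design also asks whether the response to R848 differed between genotypes, which was tested as an interaction. In 4 of the 35 genes the difference passed an FDR of 0.1, against 4.71% of all genes tested, and in all 4 the KO response minus the WT response was positive (background 3.45% positive and 1.26% negative). The differences were 1.10 ± 0.35 on the log2 scale for Ctsa, 0.88 ± 0.30 for Tfeb, 0.67 ± 0.20 for Grn and 0.34 ± 0.11 for Ctsd (edgeR FDR = 0.053, 0.081, 0.030 and 0.040). For Ctsa and Grn this was a smaller fall in KO, for Ctsd a larger rise, and for Tfeb the signs of the fitted values were opposite. The median difference over genes with a mean of at least 10 counts was 0.18, so that of Ctsd exceeded it by 0.16. Over the 35 genes the median difference was -0.01, and over all genes tested it was 0.19.

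None of these 4 calls held under every scaling. Their differences with RLE factors were 0.95 for Ctsa, 0.72 for Tfeb, 0.52 for Grn and 0.19 for Ctsd. With RLE factors the median of all genes was 0.02 and the calls were Lamp1 and Lamp2, both with a smaller rise in KO (differences of -0.52 and -0.52), with DESeq2 the call was Lamp1 alone, and with library size alone the calls were Grn and Lamp1. Without WT R848 replicate 1 the calls were Ctsz, Lamp1 and Lamp2, and without replicate 2 they were Lamp1, Lamp2, Lipa and Psap, all of them lower in KO. Of all genes, 53 were then called higher and 233 lower without replicate 1 and 118 higher and 348 lower without replicate 2. Measured from the median of all genes, the Lamp1 difference was -0.54 with TMM, RLE and library size alike. From 0, the Lamp1 difference was -0.36 with TMM. The 4 reported calls were as stable when measured from the median under these scalings. Ctsa stayed at 0.925, Tfeb at 0.70, Grn at 0.49 and Ctsd at 0.16 to 0.17. The erythroid sums given above differed between the genotypes most after R848, and their part in the scaling was not tested.

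**Figure D5:**
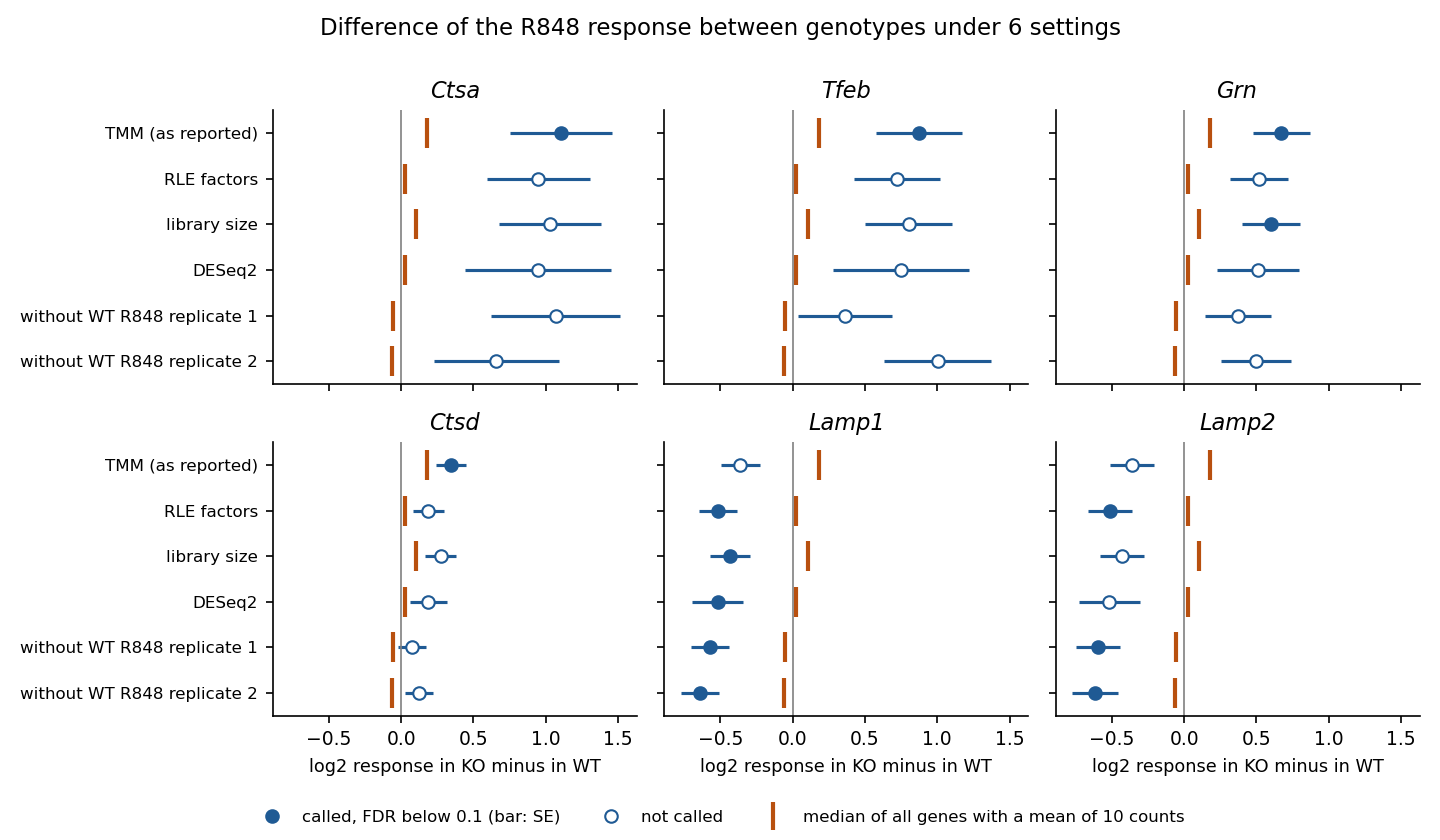
Difference of the log2 R848 response, KO minus WT (x axis), for 6 lysosomal genes under 6 settings (y axis), with the SE as a bar and filled where the FDR was below 0.1. The vertical tick marks the median of all genes with a mean of at least 10 counts, which ran from -0.06 to 0.18 and shifted the genes along with it.

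Other genes of the lysosomal pathway were counted from lists chosen with earlier results of these data known. At an FDR below 0.1, 13.5% of all genes tested rose and 16% fell in WT, and 19.2% rose and 15.9% fell in KO, and the shares of each list are given against these. Of 24 further hydrolases tested, 6 (25%) rose and 5 (20.8%) fell in WT and 8 (33.3%) rose and 4 (16.7%) fell in KO at an FDR below 0.1. The ganglioside activator Gm2a fell by 1.77 on the log2 scale in both genotypes. The acid phosphatase Acp2 rose by 1.78 in WT and 3.09 in KO, with a difference of 1.32 (edgeR FDR = 0.065). The cathepsin Ctsc, which activates granule proteases, rose by 1.07 in WT and had a value of 0.17 in KO that did not pass, with a difference of -0.90 (edgeR FDR = 0.070). Between the genotypes, 5 of the 24 (20.8%) were higher and 5 (20.8%) lower in unstimulated KO, of which 5 and 1 exceeded 2-fold. After R848, 6 (25%) were higher and 3 (12.5%) lower. The shares of all genes were 9.55% and 14.4% without stimulation and 9.46% and 7.81% after R848. Among those higher in KO, Ctsc differed by 1.59 without stimulation and by 0.70 after R848, and the cathepsin Ctss by 1.19 and 0.75. The acid phosphatase Acp5 was higher by 3.05 and 2.80, from at most 6 counts in any WT library. Ctsf had 0 counts in every WT library and 3 to 8 in the KO libraries. Of the 15 monocyte and macrophage markers, 4 were higher in unstimulated KO, 1 was lower and 10 did not pass, against 9.55% of all genes higher and 14.4% lower.

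Of 23 further membrane proteins, 5 (21.7%) rose and 7 (30.4%) fell in WT and 6 (26.1%) rose and 7 (30.4%) fell in KO. The metal transporter Slc11a1 rose by 2.66 and 2.76 and the peptide transporter Slc15a3 by 2.35 and 2.08, while the lipid transporter Abca2 fell by 2.07 and 1.67 on the log2 scale. Of 16 subunits and accessory proteins of the proton pump that acidifies lysosomes, 5 (31.2%) rose and 1 (6.25%) fell in WT and 8 (50%) rose in KO, with no rise above 2-fold. The subunit that fell in WT was Tcirg1 (log2 change -1.11, edgeR FDR = 2.7e-07), and its response was higher in KO by 0.88 (edgeR FDR = 0.023). Tcirg1 was the only 1 of the 16 (6.25%) whose response differed between genotypes, against 4.71% of all genes.

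The partners of Tfeb rose where Tfeb itself did not pass in WT. Tfe3 rose by 2.17 in WT and 1.58 in KO and Mitf by 2.40 and 2.14 on the log2 scale, the latter from 6.18 and 6.91 CPM to 36.7 and 33.6 CPM in WT. Flcn, which governs their release through the Rag GTPases, rose by 1.01 and 1.17. Of the 21 genes of the TFE family and mTORC1 control, 6 (28.6%) rose and 5 (23.8%) fell in WT and 7 (33.3%) rose and 3 (14.3%) fell in KO. By more than 2-fold, 3 rose and 4 fell in WT, against 7.17% and 10.8% of all genes. In KO, 4 rose and 1 fell by more than 2-fold, against 8.07% and 8.84%. Of 22 autophagy genes, 7 (31.8%) rose and 5 (22.7%) fell in WT and 12 (54.5%) rose and 2 (9.09%) fell in KO. The difference of response passed for 2 of the 22 (9.09%), against 4.71% of all genes. The median difference of the 22 was 0.20 on the log2 scale, beside 0.19 over all genes tested. Optn, a cargo receptor like Sqstm1, rose by 1.41 and 1.34, whereas Nbr1, another such receptor, fell by 0.74 in WT and rose by 0.49 in KO, with a difference of 1.23 (edgeR FDR = 0.00024). Of 19 sorting and fusion genes, 3 (15.8%) rose and 3 (15.8%) fell in WT and 6 (31.6%) rose and 1 (5.26%) fell in KO, so that the WT shares were near those of all genes. Among them were the mannose 6-phosphate receptor M6pr, which rose by 0.95 and 0.51, and Sort1, which fell by 1.07 and 0.64. In unstimulated KO, 7 (30.4%) of the further membrane proteins, 7 (43.8%) of the proton pump and 4 (19%) of the TFE and mTORC1 genes were lower. So were 7 (31.8%) of the autophagy and 5 (26.3%) of the sorting genes, against 14.4% of all genes. Only the membrane proteins had genes higher, 2 (8.7%) against 9.55%. Differences of response of these pathway genes are given with TMM factors only.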

How the data were processed

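RNA from 8 libraries in 4 groups was sequenced on a MiSeq from an Illumina TruSeq v2 kit. The submitters' processing notes name FastQC 0.11.7, cutadapt 1.16, STAR 2.5.3a, HTSeq 0.6.1p1 and the build mm10. The deposited values were raw counts per gene symbol, made by the authors without normalization; annotation and strand setting are not given in the sources used here. Between 87.0% and 89.5% of the reads in the deposited table, where unaligned and multiply aligned reads are listed at 0, were counted on genes, and summary lines were left out.

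Genes with at least 1 count in at least 2 libraries were tested with edgeR 4.0.16 in R 4.3.3 (limma 3.58.1): TMM factors, 1 mean per group and the robust quasi-likelihood fit, with Benjamini-Hochberg adjustment over 12254 genes. Responses were called at an FDR below 0.1 and over 2-fold, other contrasts at an FDR below 0.1. SE is the absolute log2 change over the square root of F. DESeq2 1.42.0 and the other alternatives of the closing section were also run. Sums over gene lists use library totals, other CPM use TMM factors.

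Every one of the 35 genes is accounted for. Values per library are given for those past an FDR of 0.1 and 2-fold in a response or past an FDR of 0.1 in the difference of response. They are also given for Lamp1, Lamp2, Cd63, Ctsd, Tfeb, Sqstm1, Grn and Psap. Further pathway genes were named, at most 4 per list and contrast, where past the same thresholds. M6pr and Ctsf were chosen after their values were seen. The result of 1 gene of the pathway lists is left out here, although the gene is in the counts. The 35 genes and all lists were chosen with earlier results of these data known. Ly6g was not used here.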

Additional observations from a re-analysis of the deposited data

Results flagged for a closer look

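The response to R848 differed between WT and KO, by the interaction term of the quasi-likelihood test in edgeR (Benjamini-Hochberg FDR below 0.1), for 4 of the 35 lysosomal genes, against 4.71% of all genes tested (3.45% higher and 1.26% lower in KO). The KO response exceeded the WT response by 1.10 on the log2 scale for Ctsa, by 0.34 for Ctsd, by 0.67 for Grn and by 0.88 for Tfeb. Of 15 alternatives, Grn was called in 9, Ctsa in 6, Ctsd in 5 and Tfeb in 4, and all 4 kept their sign in each. With RLE factors and with DESeq2 none of the 4 was called, and the calls were Lamp1 and Lamp2 and Lamp1 alone, lower in KO. The differences of the 4 with DESeq2 were 0.94 for Ctsa, 0.19 for Ctsd, 0.51 for Grn and 0.75 for Tfeb.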

How the results depend on the processing

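The alternatives were DESeq2, RLE factors, library size alone, filterByExpr, no filter beyond 1 count and separate models. An FDR of 0.05, the replicate block and leaving out each library were also tried. The separate models were fitted per genotype for the responses and per treatment for KO against WT. The number of lysosomal genes called for the R848 response ran from 13 to 18 in WT (17 as reported) and from 13 to 16 in KO (15 as reported). For the difference of response, 4 as reported, the count was 1 with DESeq2 (125 of all genes called, in place of 577), where 15 genes had no adjusted p, 2 with RLE factors (393), 2 with library size alone (425), 2 at an FDR of 0.05 (395), 6 with filterByExpr (650 of 7376 genes; of the 6, 5 were higher and 1 lower in KO, with Cd63 and Lamp1 added) and 1 to 4 with a library left out. It was 2 without KO Nostim replicate 1, 1 without KO Nostim replicate 2 and 2 without KO R848 replicate 1, and the 3 and 4 calls without WT R848 replicate 1 or 2 were all lower in KO. For KO against WT without stimulation, 9 as reported, the count was 4 with DESeq2 (8.66% of all genes called, in place of 23.9%), 13 with separate models (8 higher and 5 lower in KO, in place of 3 and 6, beside 1584 higher and 1179 lower of all genes, in place of 1170 and 1763) and 5 to 11 with a library left out, the lowest without WT Nostim replicate 2. For KO against WT after R848, 7 as reported, it was 5 with DESeq2 (8.23% of all genes, in place of 17.3%) and 6 to 7 with a library left out. With library size alone, the log2 difference of Grn between unstimulated KO and WT was 0.034 in place of -0.25. The cause of these shifts was not tested.

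Whether equal replicate numbers pair the samples could not be decided. The correlations of their deviations lay between -0.02 and 0.02. Much of the difference between duplicates was counting error (chi-square per degree of freedom 1.05 to 1.67), which would give values near 0 with or without pairing. With the replicate block the counts were 17 and 15 for the responses, 4 for their difference, and 10 and 7 for KO against WT. Counts per library limit Sgsh, Manba, Glb1, Gla and Naglu, whose values rest on few reads. With 2 libraries per group, every p borrows its spread from other genes in the fit.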
